A study of Drosophila melanogaster with 6 samples.

Results

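The genes described here encode the proteins of the cytoplasmic ribosome in *Drosophila melanogaster*. They were chosen by symbol alone, as RpL or RpS (with RpLP for the stalk proteins) followed by a number and at most 2 letters, a rule that uses no measured value. This gave 87 of the 17807 genes in the table, 50 of the large and 37 of the small subunit, with 9 pairs of paralogues among them. The ribosomal proteins sta (uS2) and Rack1 carry other names and are given apart. Libraries were made from body wall muscle of wandering third-instar larvae in 2 groups of 3. Control knockdown larvae carried Dmef2-Gal4 and UAS-mCherryRNAi, a hairpin against a fluorescent protein that flies lack, and Mad knockdown larvae carried the same driver with UAS-madRNAi. The Gal4 driver thus acts in muscle in both groups, and each library pooled the muscle-enriched lysates of 6 to 10 larvae. Mad is the transcription factor of the bone morphogenetic protein (BMP) pathway, and the comparison asks what its loss from muscle does to the transcriptome.

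The cytoplasmic ribosome translates the messenger RNAs of the nucleus. Its small subunit holds and decodes the mRNA, and its large subunit joins the amino acids and releases the chain through an exit tunnel. Since the proteins of both subunits are needed in fixed proportions, their genes are usually expressed together at very high levels, and in flies the loss of a single copy of many of them gives the Minute phenotype of slow growth and short bristles. Some of the genes have a second copy, and in flies RpS5b, RpS10a and RpS19b are known mainly from the germ line. In larval muscle, growth is by enlargement of existing fibres and calls for a large supply of ribosomes.

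Values are normalized counts, which are gene counts divided by 1 factor per library by the authors. Whole counts recovered from them summed to between 96639921 and 127220949 per library. Mad itself was at 7533, 7658 and 7010 in control replicates 1, 2 and 3 and at 4348, 5643 and 5053 in Mad knockdown replicates 1, 2 and 3, so the knockdown libraries were the lower ones. Genes of other larval tissues were also abundant: the cuticle genes Lcp1, Lcp2, Lcp3, Lcp4 and Cpr49Ac together took 9.88% to 12.1% of the control and 10.7% to 12.9% of the Mad knockdown counts. Ribosomal protein mRNAs are made in all cell types, so fewer cells of a type and less RNA per cell cannot be told apart below. All 8 muscle markers listed (Mhc, Act57B, up, wupA, Tm2, sls, bt and Mef2) were detected. Nothing in the labels says whether the 3 libraries of a group came from separate crosses, so p-values measure the spread between these libraries.

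Ribosomal protein transcripts were abundant and fairly even in level. Of the 87 genes, 83 passed the filter of at least 10 normalized counts in at least 3 libraries, and 79 of these averaged at least 10000. Compared per kilobase of merged exon, the levels of these 79 had a median of 69870 normalized counts, with quartiles of 51716 and 91412. The large subunit had a median level of 70864 per kilobase and the small subunit 68915. Levels per kilobase are approximate, since the merged exons also hold rarely used ends.

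The highest level per kilobase was that of RpL41, a peptide of 25 residues at the subunit interface, with 266036 in control and 228499 in Mad knockdown libraries. The acidic stalk proteins RpLP1 and RpLP2, which help to recruit the elongation factors, came next. RpLP1 had mean levels of 174261 and 140888 per kilobase in the control and Mad knockdown groups, and RpLP2 had 163550 and 140279. RpL23 followed with 148024 and 135889, and RpL39, a short protein of the exit tunnel wall, with 147186 and 124477. At the other end of the 79 genes stood RpS9 at 17307 per kilobase over all 6 libraries, a value that is uncertain because an antisense gene covers 50.3% of its exonic sequence and no source says whether counting used strand.

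The libraries of a group resembled each other closely for these genes. Among the 81 genes with a mean of at least 1000, the median coefficient of variation was 4.91% over the control and 2.87% over the Mad knockdown libraries. Over all 5425 genes with a mean of at least 1000 the medians were 6.27% and 7.15%. This set was not matched to the members in level, since 79 of the members averaged at least 10000. Over the control libraries RpS29 varied least, at 77240, 76921 and 77451. Over the Mad knockdown libraries it was RpL3, a protein of the peptidyl transferase centre, at 122776, 122660 and 122722 in Mad knockdown replicates 1, 2 and 3, against 131309, 142922 and 146497 in the controls.

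In Mad knockdown libraries the ribosomal protein genes were lower by a small amount. The median log2 fold change of the 83 tested genes was -0.20, with quartiles of -0.22 and -0.15, against a median of 0.0054 over all 10348 genes tested. The median gene stood at 87.2% of its control mean. All 83 had a fold change below 0 at the authors' scaling, as had 48.9% of all genes tested, and 79 to 83 of them did so at the other scalings tried. In 68 of the 83 genes (81.9%) every Mad knockdown library lay below every control library, in 15 the groups overlapped, and in none did the knockdown libraries all lie above. Over all genes tested, 13.0% were parted in the lower direction and 11.6% in the higher.

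No single gene passed the test. In limma with Benjamini-Hochberg adjustment over all genes, 0 of the 83 had an adjusted p-value under 0.05, where 2.59% of all genes did, 1.57% in the lower and 1.02% in the higher direction. The adjusted p-values of the 83 ran from 0.0578 to 0.961. At an unadjusted p-value under 0.05 there were 50 members (60.2%), all lower, against 10.7% of all genes in that direction. The count of 50 was 14 without Mad knockdown replicate 1, 17 without control replicate 3, 19 without control replicate 2 and 30 without Mad knockdown replicate 2. It was 22 after quantile normalization and 29 with 75th percentile scaling. edgeR called 0 members, where it called 2.44% of all genes, 1.41% lower and 1.02% higher, and it gave 49 members an unadjusted p-value under 0.05, against 10.2% of all genes in the lower direction. DESeq2 called 27 members (32.5%), 18 of the large and 9 of the small subunit, all of them lower, where it called 9.64% of all genes, 5.87% lower and 3.78% higher. With the trend of each library against gene length and level removed, the median was -0.12, 80 members were lower and 11 had an unadjusted p-value under 0.05.

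**Figure D1:**
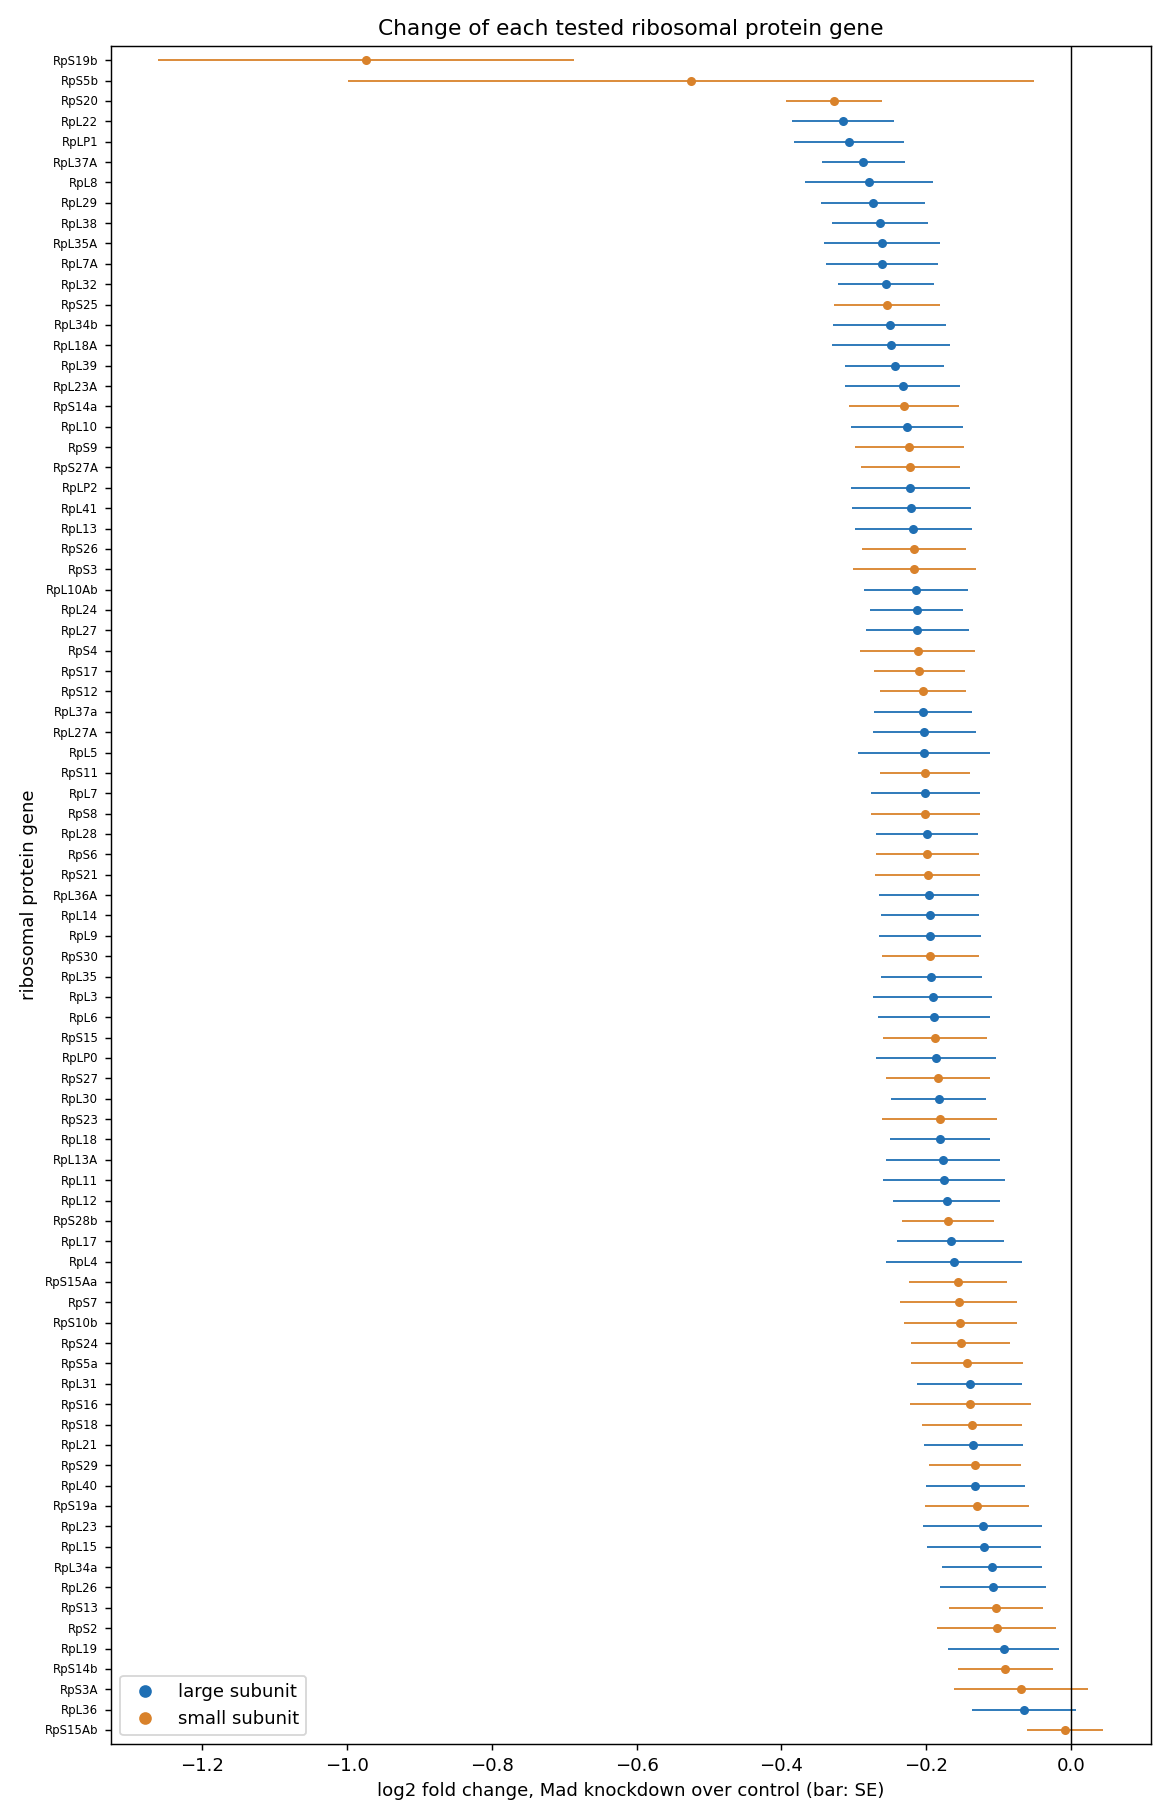
Log2 fold change of Mad knockdown over control for each of the 83 tested ribosomal protein genes, with bars of 1 SE, ordered from lowest to highest and coloured by subunit. Apart from RpS19b and RpS5b, which were counted at very low levels, the genes lie between -0.33 and -0.0080, with no gene above 0.

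The spread among members was no wider than the error of a single gene. Over the 81 genes with a mean of at least 1000 the fold changes had an SD of 0.0584, and the median SE of a gene was 0.0722 on the same log2 scale. Since the genes share their libraries, part of each SE can be common to all of them. The comparison therefore does not show that the members changed alike. The members stood at 79.7% to 99.5% of their control means. Across these 81 genes the fold change had Spearman correlations of 0.045 with the level, -0.013 with the level per kilobase and 0.057 with the coding length, given as a description since the genes share their libraries. By chromosome arm the median fold changes were -0.20 on 2L (17 genes tested), -0.18 on 2R (18), -0.21 on 3L (14), -0.20 on 3R (19) and -0.17 on X (14), over all 83 genes tested. RpS3A, the 1 member on chromosome 4, had -0.069.

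Of the abundant members, the lowest fold changes belonged to RpS20, RpL22, RpLP1 and RpL37A. RpS20 (FBgn0019936, chromosome 3R, 20822181 to 20823356), a protein of the head of the small subunit, had 40108, 44087 and 43325 normalized counts in control replicates 1 to 3 and 33255, 35028 and 33334 in the Mad knockdown replicates. The groups were far apart, and the log2 fold change was -0.33 (SE 0.0665) with a limma p-value of 0.0592 after Benjamini-Hochberg adjustment. RpL22 (FBgn0015288, chromosome X, 762560 to 765130), which in flies carries an N-terminal extension resembling histone H1, had 35270, 35721 and 34404 in controls and 26161, 28807 and 29923 after Mad knockdown. Its knockdown libraries differed more among themselves than its controls did, and its log2 fold change was -0.31 (SE 0.0705, adjusted p = 0.0743 in limma). A long non-coding RNA gene covers 34.3% of its exons, so part of its count is uncertain.

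RpLP1 (FBgn0002593, chromosome 2L, 419952 to 420864) had 129301, 137860 and 134337 normalized counts in control replicates 1 to 3 and 109674, 105133 and 109800 in the Mad knockdown replicates. No control library came near a knockdown library, and the log2 fold change was -0.31 (SE 0.0763, adjusted p = 0.0930 in limma). RpL37A (FBgn0261608, chromosome 2L, 5070957 to 5072055) is a zinc-binding protein of the large subunit, and a different protein from RpL37a. It had 41187, 39921 and 41614 in controls and 32835, 34089 and 33673 after Mad knockdown, with a log2 fold change of -0.29 (SE 0.0577). Its adjusted p-value in limma, 0.0578, was the smallest of all members. An antisense gene covers 19.7% of its exonic sequence. RpL38 (FBgn0040007, chromosome 2R, 4515388 to 4516458) completed the 5 genes with the smallest p-values, at 30710, 29783 and 31261 in controls and 24365, 27173 and 24960 after knockdown. Its log2 fold change was -0.26 (SE 0.0658, adjusted p = 0.0934 in limma). DESeq2 called all 5, with adjusted p-values from 1.5e-04 to 0.0129. Since the 5 were picked by their limma p-values in the same libraries, this is not independent support. DESeq2 called 27 members and 9.64% of all genes.

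RpL32, named after its values were seen because it is a common reference gene for quantitative PCR in flies, was at 52312, 55920 and 57479 in controls and at 45325, 46431 and 46962 after Mad knockdown. Every knockdown library was below every control library, with a mean at 83.7% of control and a log2 fold change of -0.26 (SE 0.0668, adjusted p = 0.104 in limma and 0.0068 in DESeq2). 

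At the other end, with the fold changes nearest to 0, were RpS15Ab, RpL36, RpS3A, RpS14b and RpL19. The groups of all but RpS14b overlapped, and RpS14b and RpS15Ab are described with their paralogues. RpS3A (FBgn0017545, chromosome 4, 65225 to 67207), a protein of the small subunit platform, was at 187325, 177560 and 196221 in controls and at 176909, 187653 and 170276 after knockdown. The highest knockdown library was above 2 of the 3 controls, and the log2 fold change of -0.069 (SE 0.0928) became 0.15 after quantile normalization. RpL36 (FBgn0002579, chromosome X, 628338 to 629483) had 61647, 65780 and 68689 in controls and 63686, 60799 and 62884 in knockdown libraries. Here control replicate 1 lay within the range of the knockdown libraries, and the log2 fold change was -0.065 (SE 0.0720), or 0.014 with the length and level trend removed. RpL19 (FBgn0285950, chromosome 2R, 24967877 to 24969547), at the rim of the exit tunnel, had 89976, 97312 and 100304 against 88773, 88881 and 91726, with a log2 fold change of -0.093 (SE 0.0769), or 0.018 after quantile normalization. 

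**Figure D2:**
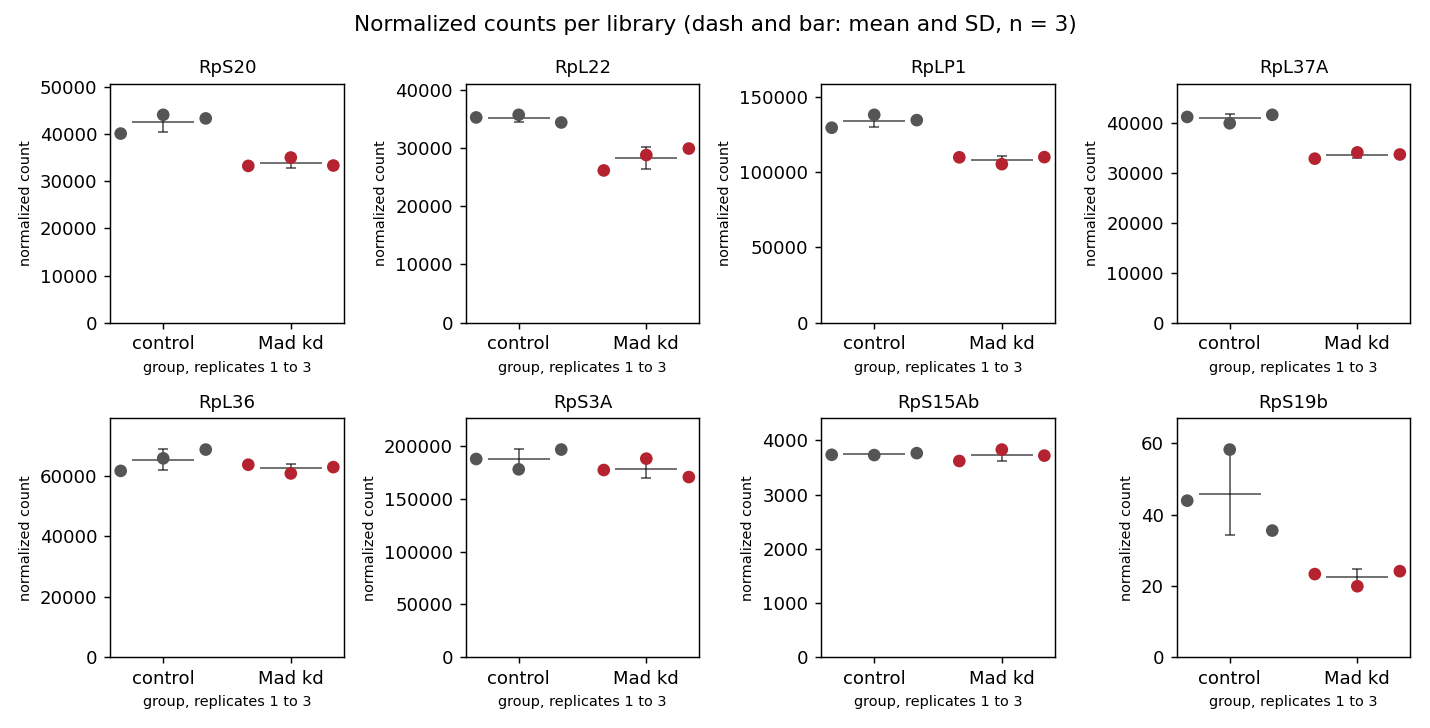
Normalized counts of 8 ribosomal protein genes in the 6 libraries, from 0, with the mean and SD of each group. In RpS20, RpL22, RpLP1 and RpL37A all knockdown points lie below all control points, in RpL36, RpS3A and RpS15Ab the groups overlap, and RpS19b is parted at a level of 20.0 to 58.2 counts.

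Functional neighbours within the ribosome had medians between -0.20 and -0.17. The 4 stalk genes RpLP0, RpLP1, RpLP2 and RpL12 had a median log2 fold change of -0.20, and all 4 had groups that did not overlap. Groups were parted in the lower direction in 81.9% of all members tested and in 13.0% of all genes tested. RpLP0, the scaffold of the stalk, was at 94272, 104856 and 97754 in controls and at 86753, 82464 and 91801 after knockdown. The knockdown libraries were all below the lowest control, and the log2 fold change was -0.19 (SE 0.0829). RpL5 and RpL11, which bind 5S ribosomal RNA, had log2 fold changes of -0.20 and -0.18. The 3 genes whose proteins are made as fusions, RpL40 and RpS27A to ubiquitin and RpS30 to a ubiquitin-like protein, had log2 fold changes from -0.22 to -0.13. In all 3 the groups were parted, as in 81.9% of the members. The 7 genes around the exit of the tunnel (RpL17, RpL19, RpL23A, RpL26, RpL31, RpL35 and RpL39) ran from -0.24 to -0.093 with a median of -0.17. In the small subunit, RpS2, RpS3 and RpS30 at the mRNA entry had a median of -0.19. RpS14a, RpS14b, RpS26 and RpS28b at the mRNA exit also had a median of -0.19. RpS6, the substrate of S6 kinase in the TOR pathway, was at 81572, 87078 and 87880 in controls and at 72699, 75342 and 75488 after knockdown, a log2 fold change of -0.20 (SE 0.0707).

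The 2 subunits had similar medians. The 48 large subunit genes tested had a median log2 fold change of -0.20, with 40 parted in the lower direction and 31 at an unadjusted p-value under 0.05. The 35 small subunit genes had a median of -0.19, with 28 parted and 19 at that p-value. Of all genes tested, 13.0% were parted in the lower direction and 10.7% were lower at that limma p-value. Summed over genes, the ratio of large to small subunit counts was 1.63, 1.65 and 1.63 in control replicates 1, 2 and 3 and 1.61, 1.60 and 1.62 in the Mad knockdown replicates. The knockdown ratios were all below the control ratios, with a mean difference of -0.0305, and no test of this sum was made.

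For each of the 81 genes with a mean of at least 1000, every library was set against the gene's control mean. The median log2 deviation was -0.076, 0.029 and 0.039 in control replicates 1, 2 and 3 and -0.21, -0.20 and -0.15 in Mad knockdown replicates 1, 2 and 3. Control replicate 1 was thus the control nearest to the knockdown libraries, with 73 of 81 genes below their control mean, against 21 and 5 in control replicates 2 and 3. In the Mad knockdown replicates 81, 79 and 81 genes were below it. Without control replicate 1 the median fold change of the 83 genes was -0.23, and without control replicate 2 it was -0.18.

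**Figure D3:**
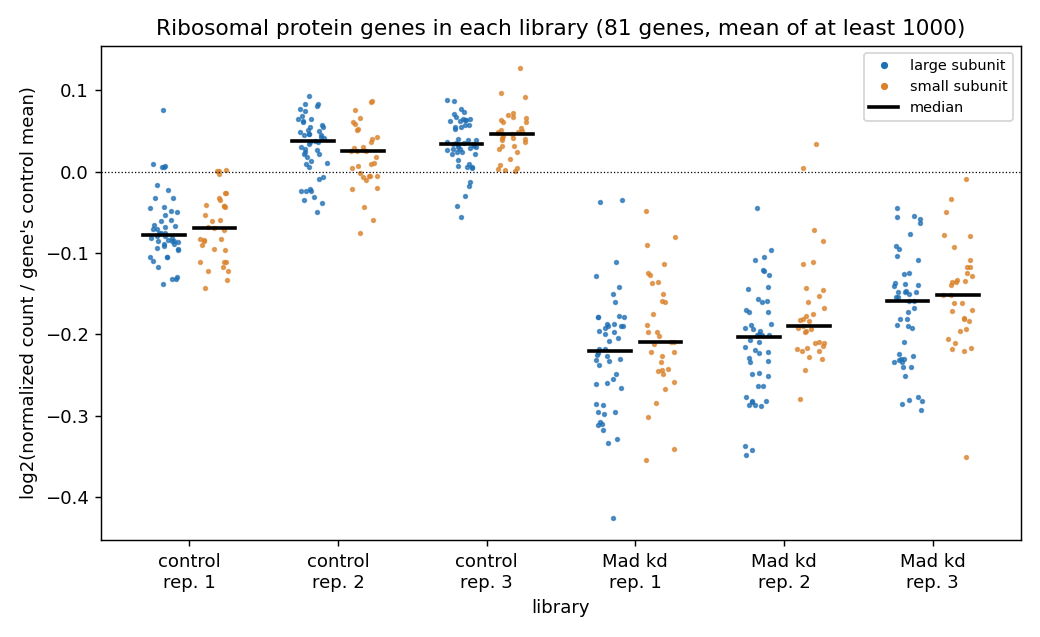
Log2 ratio of each gene's normalized count to its control mean, for 81 ribosomal protein genes in each library, with the large and small subunits side by side and black bars at their medians. Control replicate 1 lies below the other controls, and the medians of the 3 knockdown libraries lie below it.

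As a share of all counts, the groups overlapped. The 87 genes together took 4.80%, 5.24% and 5.38% of the normalized counts in control replicates 1, 2 and 3 and 4.60%, 4.50% and 4.80% in Mad knockdown replicates 1, 2 and 3. To a further decimal, control replicate 1 (4.795%) was below Mad knockdown replicate 3 (4.805%). The mean share was 5.14% ± 0.303 in controls and 4.64% ± 0.154 after Mad knockdown (SD, n = 3). With mitochondrially encoded genes left out of the total, a setting chosen after seeing the data, the shares were 5.23%, 5.70% and 5.83% in controls and 4.95%, 4.87% and 5.17% after knockdown, and the groups did not overlap. Those mitochondrial genes themselves took 7.81% to 8.31% of the counts in controls and 7.004% to 7.61% after knockdown. With the 10 most abundant other genes left out of the total instead, the groups still overlapped. The shares were then 6.00%, 6.74% and 6.88% in controls and 5.90%, 5.68% and 6.18% after knockdown. The mean share with all genes in the total was 90.3% of control, while the summed normalized counts stood at 87.8%. The 2 figures differ because the normalized counts of all genes did not sum to the same total in each library. 

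**Figure D4:**
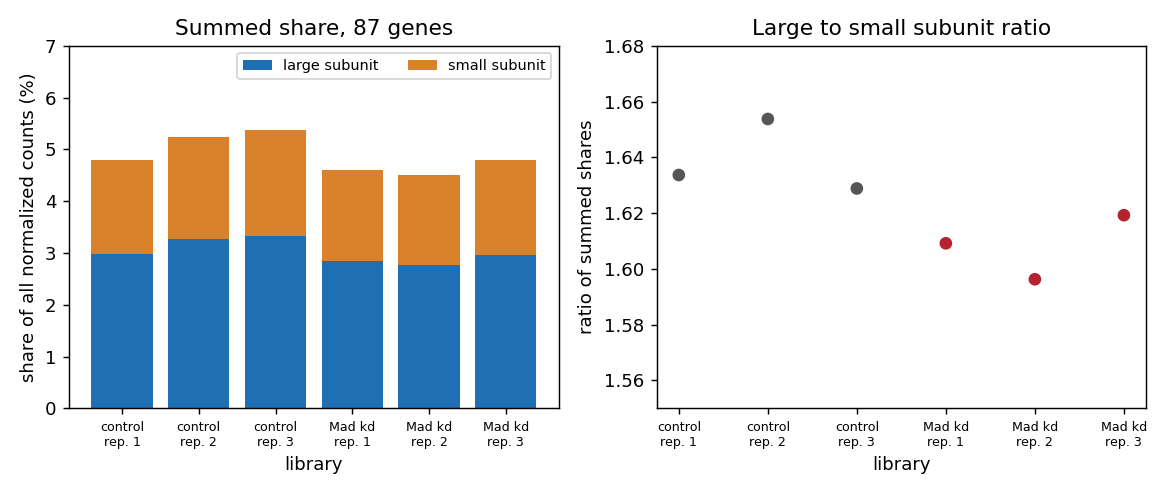
Left, the share of all normalized counts taken by the 50 large and 37 small subunit genes in each library, from 0. Right, the ratio of the large to the small subunit share, on an axis that does not start at 0. Control replicate 1 and Mad knockdown replicate 3 have nearly equal shares, while the ratios of the knockdown libraries, up to 1.62, all lie below those of the controls, from 1.63.

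Paralogue use in these lysates was one-sided for most of the 9 pairs. RpL10Aa and RpL37b had 0 counts in all 6 libraries, where a count of 0 allows up to 3 counts per library. RpS10a had 4 counts over the control and 2 over the Mad knockdown libraries, and RpS28a had 2 and 2. These 4 genes were not tested, while their partners RpL10Ab, RpL37a, RpS10b and RpS28b averaged 84446, 83273, 66345 and 64932 normalized counts in controls. RpS5b and RpS19b were tested at very low levels. The other 3 pairs, RpS14a with RpS14b, RpS15Aa with RpS15Ab and RpL34a with RpL34b, were expressed from both genes.

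The share of the less abundant gene was compared in the 5 pairs where it was detected in every library. An exact two-sided permutation test was used, which cannot go below 0.1 with 3 libraries against 3, and p-values were adjusted over the 5 pairs. RpS14b made up 37.7%, 36.6% and 37.9% of the RpS14a and RpS14b counts in control replicates 1, 2 and 3 and 40.9%, 39.4% and 38.8% in the knockdown replicates. Every knockdown library had the higher share, by 2.31 percentage points on average (exact permutation p = 0.1, adjusted 0.167). These tandem genes on X (7933742 to 7934677 and 7934898 to 7935792) encode the same protein, so the counting may have split reads between them. RpS14a had a log2 fold change of -0.23 (SE 0.0758) and RpS14b of -0.090 (SE 0.0657). Per kilobase the pair stood close, at 51715 for RpS14a and 45398 for RpS14b in controls.

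RpS15Ab made up 5.10%, 5.24% and 5.001% of its pair in controls and 5.63%, 5.62% and 5.65% after Mad knockdown. The knockdown shares were almost equal and all above the controls (exact permutation p = 0.1, adjusted 0.167). RpS15Ab (FBgn0033555, chromosome 2R, 10821676 to 10822399) itself was level, at 3735, 3730 and 3766 in controls and 3621, 3831 and 3720 after knockdown. Its log2 fold change was -0.0080 (SE 0.0527), a sign that turned to 0.0014 with TMM, 0.011 with 75th percentile scaling, 0.0019 in edgeR and 0.035 with the length and level trend removed. RpS15Aa (FBgn0010198, chromosome X, 13335637 to 13337705) was at 69539, 67483 and 71532 against 60636, 64383 and 62170, with a log2 fold change of -0.16 (SE 0.0671). Both encode 130 residues, and reads of like sequence may have been split between them too.

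RpL34a was less one-sided than RpS15Ab, with 17.3%, 17.4% and 18.5% of its pair in controls and 21.0%, 18.6% and 18.1% after Mad knockdown. The ranges overlapped (exact permutation p = 0.2, adjusted 0.25). RpL34a had 8005, 8773 and 8708 in controls and 8294, 7394 and 7951 after knockdown, and RpL34b had 38240, 41782 and 38291 against 31293, 32408 and 35858. Their log2 fold changes were -0.11 (SE 0.0688) and -0.25 (SE 0.0782).

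Of the germline-enriched copies, RpS19b (FBgn0039129, chromosome 3R, 23932729 to 23933530) had 36, 56 and 39 recovered counts in control replicates 1 to 3 and 25, 22 and 24 in the Mad knockdown replicates. Its normalized mean was 45.9 ± 11.5 in controls and 22.5 ± 2.24 after knockdown, with no overlap. Its log2 fold change of -0.97 (SE 0.287) was the lowest of all members, and limma gave it an adjusted p-value of 0.138. RpS19b was 0.0758% of its pair in controls and 0.0405% after knockdown (exact permutation p = 0.1, adjusted 0.167). RpS5b had 7, 14 and 18 counts against 6, 12 and 10, and its groups overlapped. The germline markers were low as well: vas, nos, aub, bam, piwi and zpg summed to 106 to 134 normalized counts in controls and 71.5 to 115 after knockdown, with zpg at 0 in all libraries. Whether germline tissue in the lysates moved with RpS19b was not tested.

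**Figure D5:**
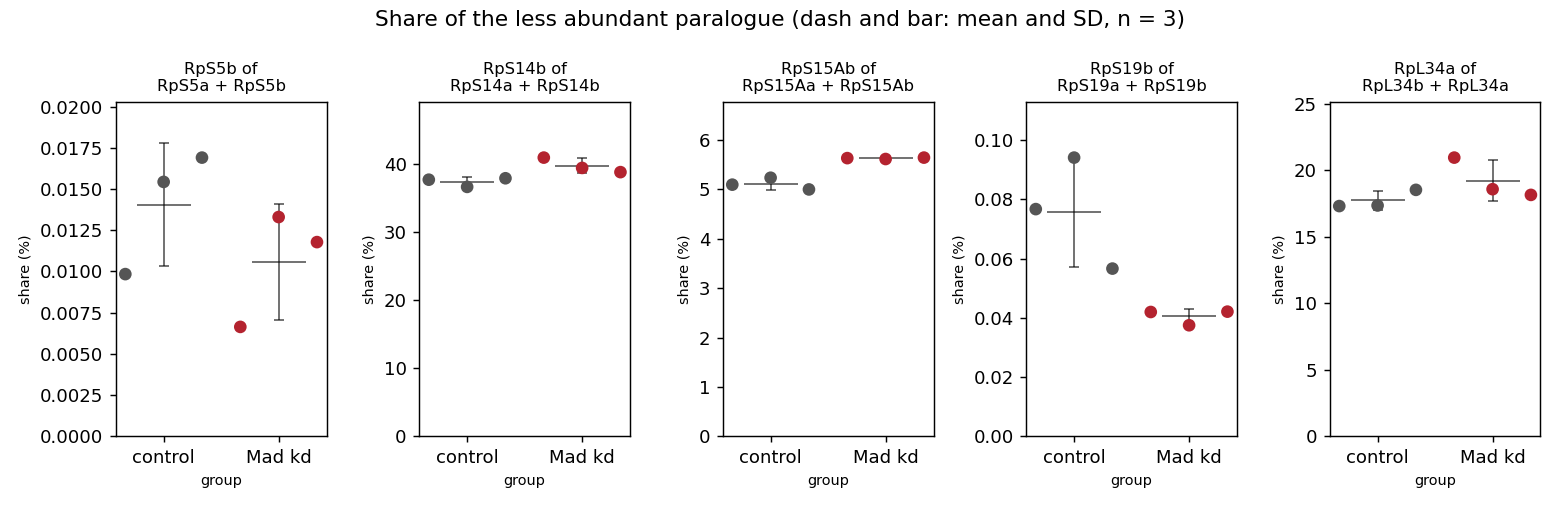
Share of the less abundant gene in each of 5 paralogue pairs, in percent of the pair's normalized counts, with points for the libraries and the mean and SD of each group. The shares of RpS14b and RpS15Ab are higher and that of RpS19b is lower in every knockdown library than in every control library, while RpS5b and RpL34a overlap.

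Of 4 other ribosomal proteins and paralogues tested outside the symbol rule, 2 were lower, sta and Rack1. RpLP0-like and RpL24-like had log2 fold changes of 0.022 (SE 0.110) and 0.014 (SE 0.0860), with overlapping groups. RpL22-like and RpL7-like did not pass the filter, and RpL7-like was at 0 in all libraries. The gene sta, for a protein of the small subunit, was at 80742, 90258 and 89527 in controls and at 68861, 73950 and 80490 after knockdown, and Rack1, a scaffold protein on the small subunit, at 131492, 139626 and 141368 against 124103, 123975 and 125956. Both had groups that did not overlap, with log2 fold changes of -0.22 (SE 0.0911) and -0.14 (SE 0.0777), and neither passed the test, with adjusted p-values in limma of 0.253 and 0.399.

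Lists of other genes of translation and growth had medians nearer to 0. Of 26 translation initiation factors 6 had a fold change below 0, and the median was 0.024. The largest values were those of eIF2beta at 0.17 (SE 0.0666) and eIF3l at 0.16 (SE 0.0696), subunits of the factors that bring the initiator tRNA and the mRNA to the small subunit. Of 9 elongation and termination factors tested 5 were below 0, with a median of -0.026. They were split. The translocase eEF2 was at 432098 ± 18615 in controls and 376986 ± 12322 after knockdown, and the exchange factor eEF1beta at 55899 ± 6621 and 64027 ± 1825. eEF2 (log2 fold change -0.20), eEF1alpha1 (-0.18, SE 0.167) and eEF1gamma (-0.18, SE 0.0870) were parted in the lower direction, near the median of the ribosomal protein genes. eEF1beta (0.20) and the termination factor eRF3 (0.14) were parted in the higher direction, and the groups of the others overlapped. Of 24 ribosome assembly genes 14 were below 0, with a median of -0.016, and CG4038 had the largest difference at -0.21 (SE 0.0778). Of 8 genes of RNA polymerase I, which makes the ribosomal RNA, 3 were below 0, with a median of 0.032. The largest values there were Polr1D at 0.34 (SE 0.142) and Polr1H at 0.20 (SE 0.251).

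Among 20 growth and TOR regulators 11 were below 0, with a median of -0.017. Myc, a transcription factor that raises ribosome production in flies, was at 2317, 2773 and 2698 in controls and at 2094, 2055 and 2369 after knockdown. Control replicate 1 lay below the highest knockdown library, and the log2 fold change was -0.26 (SE 0.0957, adjusted p = 0.219 in limma). The largest difference was that of Gcn2, a kinase that lowers translation when amino acids are scarce, at -0.35 (SE 0.112, adjusted p = 0.161 in limma). Of 8 promoter factors listed, 2 were below 0, with a median of 0.060, and Tbp and ZIPIC had the largest differences at 0.21 and 0.17. None of the genes in these 6 lists, nor sta and Rack1, was called in limma, where 2.59% of all genes were. At an unadjusted limma p-value under 0.05 there were 3 initiation factors, 1 termination factor (eRF3) and 1 polymerase gene (Polr1D), all of them higher. There were also 1 assembly gene (CG4038) and 2 growth regulators (Myc and Gcn2), all of them lower, and 0 promoter factors. Over all genes tested, 19.0% were at that p-value in either direction.

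Markers of muscle and of some other tissues also differed in summed level between the groups. The 8 muscle markers summed to between 1975901 and 2812072 normalized counts in controls and between 980948 and 1438776 after knockdown, and 7 of the 8 had a log2 fold change below 0. Tm2, a tropomyosin, was called lower, at 200656 ± 16279 against 109356 ± 21949. The 5 haemocyte markers summed to 86033 to 121154 in controls and 74116 to 82926 after knockdown, and 3 of the 5 had a log2 fold change below 0. Hml (-0.85) and Pxn (-0.30) were parted in the lower direction, while NimC1 (0.67) and He (0.11) were above 0 with overlapping groups. The 5 salivary gland markers summed to 279 to 2517 and to 16.8 to 145, with Sgs3 at 534 ± 440.3 and 18.1 ± 15.5. The summed ranges of the fat body markers (19947 to 32662 in controls, 17229 to 33941 after knockdown) and of the nervous system markers (1634 to 1944 and 1640 to 1892) overlapped. The epidermis and trachea markers summed to 15562 to 37431 and to 7216 to 15628, a sum made up mostly of verm, at 23460 in controls and 8848 after knockdown. The other 3 tested of that list were above 0, Cpr64Ad at 1.46, trh at 0.23 and btl at 0.13 on the log2 scale. No marker of these 6 lists other than Tm2 was called in limma, and the part of any of them in the values of the ribosomal protein genes was not tested.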

How the data were processed

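Polyadenylated RNA from Trizol extracts was sequenced in a paired-end run, per the labels' protocols. The submitters' processing notes name the genome build dm6. The aligner, counter, annotation and strand setting are not given in the sources used here. The authors deposited normalized counts, a signal in which each library's gene counts had been divided by a single size factor. In every column all values were whole multiples of the smallest value, within a tolerance of 0.001, and these multiples were taken as recovered counts. Exon lengths and coordinates are from the Ensembl BDGP6 annotation of the dm6 assembly, which held all 87 members and lacked 97 identifiers of the table.

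limma 3.58.1 in R 4.3.3 (lmFit, eBayes with a trend) was run on log2(normalized count + 1) of the 10348 genes with at least 10 in at least 3 libraries, comparing the 2 groups without covariates. P-values are two-sided with Benjamini-Hochberg adjustment over all genes, and a gene was called under 0.05. The added 1 makes the fold changes of genes with low counts too small. edgeR 4.0.16 and DESeq2 1.42.0 took the recovered counts. The fits were also run on simulated counts, with changes larger than those of the abundant members here. That run therefore does not show how the fits handle changes of this size. For the abundant members, counts of this depth leave the spread between 3 libraries as the main limit of precision. RpS19b and RpS5b, with 22 to 56 and 6 to 18 recovered counts per library, are also limited by the small number of reads counted.

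The symbol rule uses no measured value, but the members, pairs and lists were chosen as a subject with earlier results of these data known, so counts over them are descriptions. Genes named are the 5 lowest and 5 highest fold changes, the 5 smallest p-values, the 5 highest and 3 lowest levels per kilobase, all paralogue pairs, untested members, and from each other list the called genes or the 2 largest differences. Further names were chosen after their values were seen. The groups of neighbours within the ribosome were also written after that. Promoter and protein sequences were not analysed here.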

Additional observations from a re-analysis of the deposited data

How the results depend on the processing

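The median fold change of the ribosomal protein genes stayed negative in all 18 alternatives and moved by more than the spread between libraries (SD 0.0498, log2) only with the length and level trend removed, to -0.12. The limma fits without a variance trend and with a replicate block could not move it, since they leave each fold change as it was. Relative to the median of all genes, the median of the members was -0.20 in the report and -0.16 with the length and level trend removed. The fits that left out 1 library gave medians from -0.23 to -0.18, 82 to 83 genes lower, 0 called and 14 to 58 at an unadjusted p-value under 0.05. That last count was 22 after quantile normalization, 29 with 75th percentile scaling and 11 with the trend removed. DESeq2 called 27 members, and the other 17 alternatives called 0. Fewer libraries enter the fits without 1 of them; for the other settings the cause was not tested. Signs were followed only for the members named by rule. Among these, signs reversed for RpS15Ab (0.0014 with TMM, 0.011 with 75th percentile scaling, 0.0019 in edgeR, 0.035 with the trend removed and -0.029 to 0.012 without 1 library, above 0 without Mad knockdown replicate 1), RpS3A (0.15 with quantile normalization, 0.019 with the trend removed), RpL19 (0.018 with quantile normalization) and RpL36 (0.014 with the trend removed). After quantile normalization 79 of the 83 genes were lower, so some members that were not followed were also not lower there. The paralogue shares kept their directions per exon base and without 1 library. For RpS14b, RpS15Ab and RpS19b neither check could change the direction, since the groups were parted and scaling by exon length keeps the order of libraries. Without 1 library the differences in share ran from 1.70 to 2.77 percentage points for RpS14b, 0.465 to 0.583 for RpS15Ab, 0.633 to 2.03 for RpL34a, -0.0449 to -0.0261 for RpS19b and -0.0056 to -0.0015 for RpS5b. The difference in summed share ran from -0.67 to -0.38 percentage points without 1 library. Shares without mitochondrially encoded genes and plain sums were added after seeing the data.

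The groups use the same replicate numbers. Across genes, the deviations of libraries 1, 2 and 3 from their group means correlated between groups at -0.14, -0.066 and 0.037, so the numbers were not taken as pairs, and only Mad knockdown replicate 3 correlated best with its own number. With a replicate block limma called 0 members, with 38 at an unadjusted p-value under 0.05. The median stayed at -0.20, since a block cannot change the fold changes of a balanced design.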

Other observations

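The members did not all order the libraries alike. Of the 81 genes with a mean of at least 1000, 69 had control replicate 1 as their lowest control, and Mad knockdown replicate 2 was the highest knockdown library in 12 of these 69. The other 12 were RpL22, RpL37A, RpL38, RpL39, RpL41, RpL5, RpS15Aa, RpS29, RpL15, RpS14b, RpS3A and RpS15Ab, and in 11 of these 12 Mad knockdown replicate 2 was the highest. RpL41, for example, was at 89714, 83775 and 81906 in control replicates 1 to 3 and at 68639, 77978 and 72743 in the knockdown replicates. The median log2 fold changes of the 12 and the 69 genes were -0.18 and -0.19, and their median coding lengths 390 and 468 bases. This grouping was seen in the data and was not tested.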
